A study of Mus musculus with 6 samples.

Results

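Tubular injury and dedifferentiation markers are transcripts that renal tubular epithelial cells (RTECs) are known to raise after damage or when they lose mature tubule features. 10 of them, Havcr1, Lcn2, Clu, Spp1, Vcam1, Cd44, Prom1, Cd24a, Vim and Sox9, were picked by gene symbol from the 46517 genes in the files, and all 10 had enough reads to be tested. Poly(A) RNA was sequenced from primary RTEC cultures of wild type FvB mouse kidneys, with 3 control (CTL) cultures and 3 cultures given 50 ng/ml TGF-β1, a profibrotic cytokine, for 24 h. All 6 cultures had been grown in medium with 10% serum and 20 ng/ml EGF to 70% confluence and kept without serum for 24 h first. The mice are labelled 4 to 6 weeks old, whereas the methods give males of 3 to 5 weeks. The labels do not say whether the cultures came from separate animals, so the p-values measure only the spread between these cultures, which for replicates 1 and 3 may be technical. The comparison asks how TGF-β1 changed the levels of these markers in cultured tubule cells.

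In the kidney, a damaged tubule cell that survives can flatten, lose transport proteins and take on features of an immature cell before it divides and replaces lost neighbours. Secreted and surface proteins made in this state, such as KIM-1 (the product of Havcr1) and NGAL (the product of Lcn2), are read in urine or tissue as signs of injury. Cells that do not complete the repair can keep adhesion and matrix-binding proteins on their surface, and TGF-β1 is one of the signals that act on them.

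Libraries held 28313080 to 34183497 reads on genes, and levels are given as normalized CPM, which are reads per 1000000 after TMM scaling of the library totals. 3 counts, used here as the floor of detection, correspond to 0.0878 to 0.106 CPM, a limit that covers counting error only since reads had no molecular identifiers. The least counted marker in any library had 1062 reads. Replicate 2 stood apart in both conditions: the summed level of 4 Y-linked genes was 151 CPM in its CTL culture and 142 CPM in its TGF-β1 culture, against 0.061 to 0.172 CPM in the other cultures. Replicate 2 therefore did not share its animal source with replicates 1 and 3, and the levels of the other 4 cultures go against the description of all mice as male. 10 epithelial and tubule identity genes, among them Cdh1, Epcam, Krt8, Krt18, Cdh16 and Pax8, were all above 1 CPM in every culture. Their summed level was 1563 and 1417 CPM in replicate 2 (CTL, then TGF-β1) and 2700 to 3988 CPM in the other cultures. A fibroblast and pericyte list of 10 genes summed to 2698 and 3421 CPM in replicate 2 and to 1123 to 1501 CPM elsewhere. A leukocyte list of 12 genes summed to 9.71 to 22.8 CPM in CTL and 7.59 to 20.4 CPM in TGF-β1 cultures, and 4 of its genes (Cd3e, Cd79a, Ms4a1 and S100a8) had at most 3 counts in every library. 3 further lists summed to less in every TGF-β1 culture than in every CTL culture: endothelial genes summed to 38.7 to 54.7 CPM in CTL and 24.6 to 37.4 CPM in TGF-β1, collecting duct genes to 6.10 to 8.02 and 1.87 to 4.04 CPM, and podocyte genes to 455 to 704 and 365 to 425 CPM, the last with Nphs1 at 0.182 CPM or less. Of these genes 6 of 8 for the collecting duct and 5 of 8 for endothelium stayed under 1 CPM in every culture, so those 2 sums rest on few genes. Only 2 collecting duct, 4 endothelial and 4 podocyte genes were tested. In the unblocked edgeR test given below 0 were called, and with the replicate block 2, 1 and 4 fell, beside 19.1% of all genes. Of all single genes 18.0% were wholly below CTL in TGF-β1 cultures. The part of the cell type lists in the markers' levels was not tested. In bulk RNA, fewer cells of a type and less RNA per cell cannot be told apart.

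**Figure D1:**
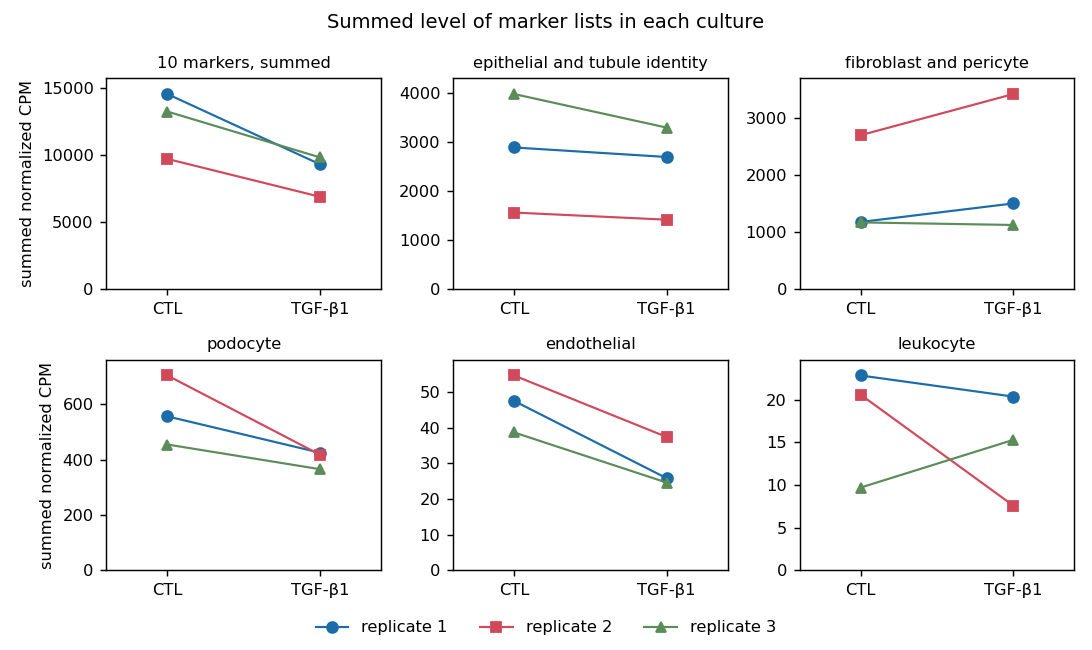
Summed normalized CPM (linear axes from 0) of the 10 markers and of 5 lists of cell type genes in each culture, with lines joining the CTL and TGF-β1 cultures of 1 replicate number. The epithelial sum is lowest and the fibroblast sum highest in replicate 2 in both conditions, and the leukocyte sum stays at or below 22.8 CPM.

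Among the 10 markers, Spp1, Lcn2, Prom1 and Vcam1 were lower and Cd44 and Vim were higher in each TGF-β1 culture than in the CTL culture with the same replicate number. Over the 3 pairs 3 markers were higher each time (Clu, Cd44 and Vim) and 6 were lower each time (Havcr1, Lcn2, Spp1, Vcam1, Prom1 and Cd24a), beside 30.4% and 32.6% of all genes tested. None of the 10 passed edgeR's quasi-likelihood test at a Benjamini-Hochberg adjusted p of 0.05 when the 3 CTL and 3 TGF-β1 cultures were compared as independent groups, whereas 11.7% of the 15862 genes tested did, 5.00% higher and 6.69% lower. 2 of them, Spp1 and Cd44, had an unadjusted p under 0.05 in that test. DESeq2 called the same pair, Spp1 lower and Cd44 higher, and limma-voom called 0. Cultures with the same replicate number deviated together from their group means, most clearly for replicate 2. A second fit therefore blocked on replicate number, comparing each TGF-β1 culture with the CTL culture of its own number. It called 6 of the 10, 2 higher (Cd44 and Vim) and 4 lower (Lcn2, Spp1, Vcam1 and Prom1). The same fit called 34.2% of all genes, 15.1% higher and 19.1% lower. The median log2 fold change of the 10 markers was -0.21, and that of all genes tested was -0.0028. The CTL and TGF-β1 cultures did not overlap for 2 markers, with TGF-β1 below CTL for Spp1 and above it for Cd44; over all genes TGF-β1 was wholly below in 18.0% and wholly above in 17.2%.

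**Figure D2:**
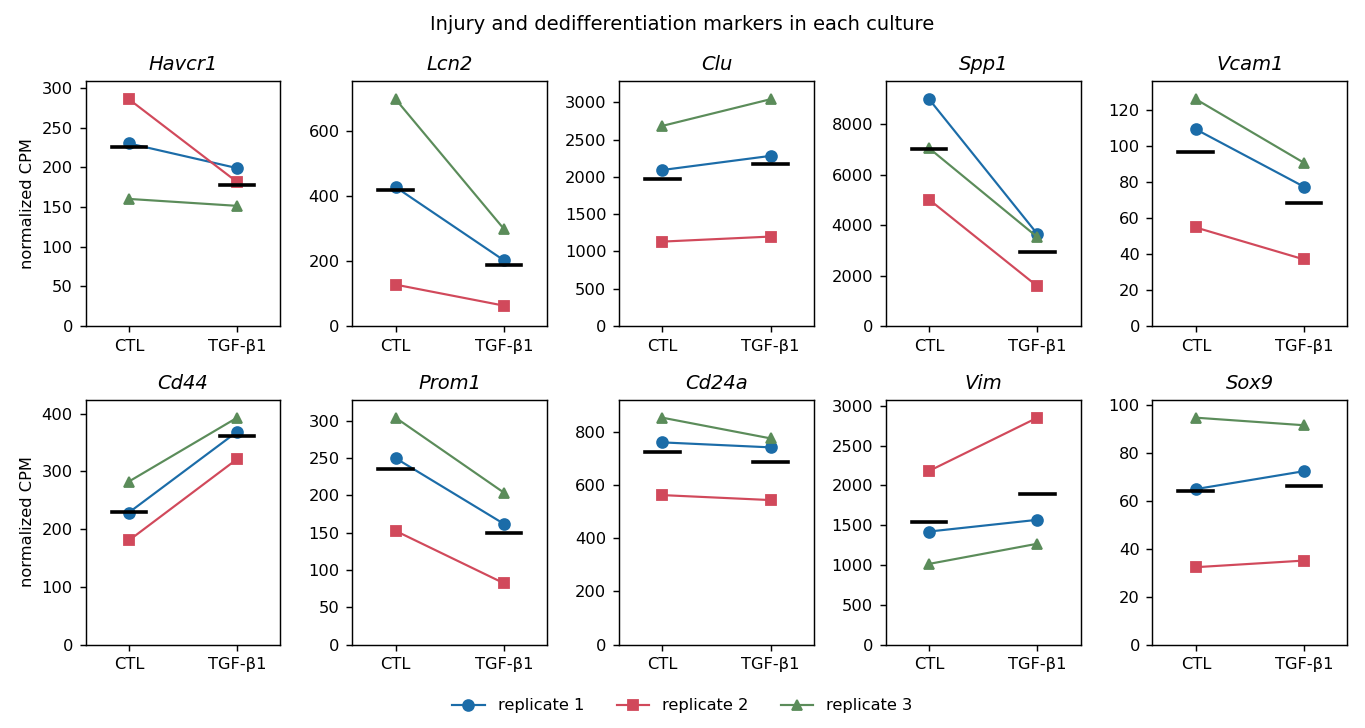
Normalized CPM (linear axes from 0) of each marker in the 3 CTL and 3 TGF-β1 cultures, with lines joining cultures of 1 replicate number and black bars at the group means. The lines for Havcr1, Lcn2, Spp1, Vcam1, Prom1 and Cd24a fall and those for Clu, Cd44 and Vim rise in all 3 pairs. The CTL and TGF-β1 points separate fully for Spp1 and Cd44 alone.

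The promoters of the 4 markers that moved furthest in the blocked fit and have a RefSeq window are shown here. Of these only Cd44 rose, so the printed windows do not allow falling and rising genes to be compared. RefSeq windows on GRCm38.p6, 250 bases before to 50 after an annotated start, were held for 6 of the 10 markers and not for Clu, Vcam1, Cd24a or Sox9. Spp1 and Prom1 each had 2 windows, of which the more upstream is printed. Each is written 5′ to 3′ on the strand of the gene, and capitals mark matches to the motifs named after the sequences.
Lcn2 promoter, chr2:32387690-32387989: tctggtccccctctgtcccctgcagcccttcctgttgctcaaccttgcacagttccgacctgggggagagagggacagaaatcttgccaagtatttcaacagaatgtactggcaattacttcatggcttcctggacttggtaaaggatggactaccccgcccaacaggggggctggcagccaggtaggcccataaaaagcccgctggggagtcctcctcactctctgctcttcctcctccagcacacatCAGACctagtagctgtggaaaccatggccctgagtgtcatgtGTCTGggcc
Spp1 promoter, chr5:104434861-104435160: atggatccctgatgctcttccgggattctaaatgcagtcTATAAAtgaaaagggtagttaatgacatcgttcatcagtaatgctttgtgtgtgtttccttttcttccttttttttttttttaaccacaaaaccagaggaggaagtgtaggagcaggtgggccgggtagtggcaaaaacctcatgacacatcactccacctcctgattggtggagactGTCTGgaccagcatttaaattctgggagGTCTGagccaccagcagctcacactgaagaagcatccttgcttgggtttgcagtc
Prom1 promoter, chr5:44101687-44101986: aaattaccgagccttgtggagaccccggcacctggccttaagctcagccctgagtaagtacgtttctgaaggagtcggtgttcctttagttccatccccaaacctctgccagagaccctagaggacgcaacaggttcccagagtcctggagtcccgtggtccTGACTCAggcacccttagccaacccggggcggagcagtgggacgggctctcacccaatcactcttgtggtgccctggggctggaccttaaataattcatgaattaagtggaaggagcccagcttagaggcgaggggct
Cd44 promoter, chr2:102901616-102901915: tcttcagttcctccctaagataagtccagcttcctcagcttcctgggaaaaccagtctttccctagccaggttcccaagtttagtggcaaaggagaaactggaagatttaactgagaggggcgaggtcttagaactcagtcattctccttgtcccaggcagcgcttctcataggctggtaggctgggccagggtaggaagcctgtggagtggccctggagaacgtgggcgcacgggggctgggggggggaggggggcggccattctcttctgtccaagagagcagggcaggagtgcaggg
Both strands were searched for 6 motifs, the SMAD box CAGAC (in 49.6% of 32851 windows of all genes), the AP-1 site TGANTCA (7.81%), the NF-kB site (8.46%), the STAT site TTCNNNGAA (8.30%), the SOX site AACAAT (10.7%) and the TATA box TATAAA (13.6%). The Lcn2 window, on the minus strand of chromosome 2, held the SMAD box with first bases at -1 and 42 from the start. The Spp1 window, on the plus strand of chromosome 5, held it at -33 and -5 and the letters TATAAA at -211. The Prom1 window, on the minus strand of chromosome 5, held 1 AP-1 match at -88, and the Cd44 window, on the minus strand of chromosome 2, held none of the 6 motifs. The second Spp1 window held 1 SMAD box at -41, and the second Prom1 window held 1 AP-1 match at -189. Vim, the other marker called higher with the block, has a window that is not printed. It held NF-kB matches at -223, -142 and -141 and the letters TATAAA at -32. Of the Havcr1 windows, also not printed, the one at chr11:46750918-46751217 held a SMAD box at -56 and an AP-1 match at 11, and the others held none. These matches describe letters in a window and not binding.

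Spp1 encodes osteopontin, a secreted phosphoprotein of bone and injured tubules that binds integrins and CD44. On GRCm38 the gene occupies chromosome 5 from 104435118 to 104441050 on the plus strand. Its level was 8997, 5016 and 7054 CPM in CTL replicates 1, 2 and 3 and 3649, 1578 and 3525 CPM in TGF-β1 replicates 1, 2 and 3. Every TGF-β1 culture was below every CTL culture, and replicate 2 was the lowest of each condition. The TGF-β1 cultures held 40.6, 31.5 and 50.0% of the CTL level in pairs 1, 2 and 3. Means were 7022 ± 1990 (SD, n = 3) and 2917 ± 1162 CPM (SD, n = 3), and the log2 fold change in edgeR was -1.27 (SE 0.37, adjusted p = 0.0835). The exact permutation test gave p = 0.1, the smallest that 3 against 3 allows. With the replicate block Spp1 fell by 1.32 on the log2 scale (SE 0.12, adjusted p = 0.000343 in edgeR). It also passed the unblocked test without both cultures of replicate 2 (-1.16, adjusted p = 0.00561). Spp1 alone took 0.512 to 0.925% of all reads in CTL and 0.151 to 0.356% in TGF-β1 libraries.

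Lcn2 encodes lipocalin 2, a secreted protein that binds bacterial iron carriers and is a urinary marker of acute tubular injury. The gene spans chromosome 2 from 32384633 to 32388252 on the minus strand. In CTL replicates 1, 2 and 3 it reached 427, 127 and 697 CPM, and in TGF-β1 replicates 1, 2 and 3 it reached 202, 62.6 and 298 CPM. Replicate 3 was highest and replicate 2 lowest in both conditions, so the groups overlapped although each pair fell. Lcn2 varied most of the 10 markers, with an 11.1-fold range from the lowest to the highest culture. Within pairs 1, 2 and 3 the TGF-β1 culture stood at 47.3, 49.2 and 42.8% of its CTL culture. The unblocked difference was -1.15 on the log2 scale (SE 0.75, 95% interval -2.99 to 0.69, edgeR adjusted p = 0.376), and the blocked difference was -1.11 (SE 0.05, adjusted p = 7.11e-06). Leaving out the replicate 3 CTL culture moved the unblocked value to -0.56 and leaving out the replicate 3 TGF-β1 culture moved it to -1.66.

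Clu encodes clusterin, a secreted chaperone that tubules release after damage, and is located on chromosome 14 from 65968483 to 65981547 on the plus strand. CTL replicates 1, 2 and 3 measured 2091, 1132 and 2683 CPM, and the TGF-β1 replicates measured 2281, 1199 and 3041 CPM. The order of the replicates was the same in both conditions and the groups overlapped almost entirely. Each TGF-β1 culture was slightly above its partner, at 109, 106 and 113% of CTL in pairs 1, 2 and 3. The log2 fold change was 0.14 (95% interval -0.90 to 1.19, edgeR adjusted p = 0.862), and it was -0.18 without TGF-β1 replicate 3 and -0.13 without CTL replicate 2. Clu was called in neither fit.

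Among the surface receptors, Havcr1 encodes KIM-1, a receptor through which injured proximal tubule cells take up dying neighbours. Its position is chromosome 11 from 46735080 to 46779578 on the plus strand. CTL cultures 1, 2 and 3 held 230, 286 and 160 CPM, and TGF-β1 cultures 1, 2 and 3 held 199, 182 and 151 CPM. Unlike the secreted markers, Havcr1 was highest in replicate 2 among the CTL cultures and lowest in replicate 3 in both conditions. The TGF-β1 levels were 86.4, 63.5 and 94.5% of CTL within pairs. The fold change of -0.35 on the log2 scale (SE 0.22, 95% interval -0.88 to 0.19) did not pass edgeR's test (adjusted p = 0.36). Havcr1 did not pass with the replicate block either, with adjusted p = 0.0754; it passed that fit without both cultures of replicate 2 (log2 fold change -0.15, adjusted p = 0.0421) and without both of replicate 3 (-0.43, adjusted p = 0.00984).

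Vcam1 encodes a vascular cell adhesion molecule that binds integrin α4β1 on leukocytes and is also made by tubule cells after incomplete repair. On chromosome 3 it runs from 116109949 to 116129688 on the minus strand. Levels were 109, 54.7 and 126 CPM in the CTL replicates and 77.3, 37.0 and 90.6 CPM in the TGF-β1 replicates, each in the order 1, 2 and 3. Replicate 2 was the lowest in both conditions and the groups overlapped. The 3 pairs fell by nearly the same share, to 70.8, 67.6 and 71.9% of CTL. Without the block the log2 fold change was -0.50 (SE 0.42, edgeR adjusted p = 0.494), and with it -0.51 (SE 0.04, adjusted p = 0.000116). Vcam1 also passed the unblocked test once both cultures of replicate 2 were left out, with adjusted p = 0.0358 in edgeR. Leaving out the replicate 2 culture of only 1 condition moved the unblocked value to -0.78 (CTL) or -0.21 (TGF-β1).

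Cd44 encodes the main receptor for hyaluronan, which regenerating tubules display and which also binds osteopontin. Its locus is chromosome 2 from 102811141 to 102901665 on the minus strand. It measured 229, 180 and 282 CPM in CTL replicates 1, 2 and 3, and 369, 321 and 393 CPM in TGF-β1 replicates 1, 2 and 3. All TGF-β1 cultures were above all CTL cultures, and replicate 2 was lowest in each condition. The TGF-β1 cultures stood at 161, 178 and 139% of their CTL partners. Mean levels were 230 ± 51.1 (SD, n = 3) and 361 ± 36.4 CPM (SD, n = 3), a log2 fold change of 0.65 (SE 0.17, edgeR adjusted p = 0.0644), with p = 0.1 in the exact permutation test. Cd44 rose by 0.67 (SE 0.07, adjusted p = 0.000277) in the blocked edgeR fit. In unblocked fits it passed without CTL replicate 3 (0.82, adjusted p = 0.0332) and without both cultures of replicate 2 (adjusted p = 0.024).

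Prom1 and Cd24a encode surface proteins, prominin-1 (CD133) and the GPI-anchored glycoprotein CD24, that together mark scattered progenitor-like tubule cells in human kidney. Prom1 is on chromosome 5 from 43993620 to 44102032 on the minus strand. It stood at 250, 152 and 304 CPM in CTL replicates 1, 2 and 3 and at 162, 82.2 and 204 CPM in the TGF-β1 replicates. Each pair fell, to 64.8, 53.9 and 67.0% of CTL, and the groups overlapped because CTL replicate 2 was below the other TGF-β1 cultures. The log2 fold change was -0.66 without the block (SE 0.39, edgeR adjusted p = 0.325) and -0.70 with it (SE 0.06, adjusted p = 0.000158). Leaving out TGF-β1 replicate 2 moved the unblocked value to -0.37. Cd24a, on chromosome 10 from 43578284 to 43584265 on the plus strand, held 760, 562 and 853 CPM in CTL and 742, 543 and 775 CPM in TGF-β1 replicates 1, 2 and 3. Its groups overlapped almost wholly, and the pairs stood at 97.5, 96.7 and 90.9% of CTL. The log2 fold change of Cd24a was -0.08 (95% interval -0.56 to 0.41, edgeR adjusted p = 0.835), and it was 0.059 without TGF-β1 replicate 2 and 0.055 without CTL replicate 3.

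Vim encodes vimentin, the intermediate filament protein of mesenchymal cells that dedifferentiated tubule cells also make. Vim spans chromosome 2 from 13573927 to 13582826 on the plus strand. Its CTL replicates 1, 2 and 3 gave 1421, 2183 and 1014 CPM and its TGF-β1 replicates 1568, 2853 and 1268 CPM. Vim was the only marker of the 10 that was highest in replicate 2 in both conditions. TGF-β1 cultures stood at 110, 131 and 125% of CTL in pairs 1, 2 and 3. The unblocked log2 fold change was 0.30 (SE 0.39, edgeR adjusted p = 0.669), and it turned to -0.12 when TGF-β1 replicate 2 was left out. With the block it was 0.28 (SE 0.06, adjusted p = 0.00972). The fibroblast and pericyte list given above was likewise highest in replicate 2, and its part in the Vim levels was not tested.

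Sox9 encodes a transcription factor of nephron development that surviving tubule cells switch on as they start to divide. The Sox9 locus is chromosome 11 from 112782224 to 112787760 on the plus strand. Sox9 measured 64.8, 32.2 and 94.6 CPM in CTL replicates 1, 2 and 3 and 72.3, 35.0 and 91.4 CPM in TGF-β1 replicates 1, 2 and 3. The replicates kept their order in both conditions, with replicate 2 lowest and replicate 3 highest. Sox9 was at 112 and 109% of CTL in pairs 1 and 2 and at 96.7% in pair 3. The log2 fold change was 0.05 (95% interval -1.12 to 1.23, edgeR adjusted p = 0.959), and its sign turned to -0.015 when libraries were scaled by total reads alone. It was also below 0 without CTL replicate 2 (-0.26), TGF-β1 replicate 1 (-0.014), TGF-β1 replicate 3 (-0.25) or both cultures of replicate 1 (-0.0034).

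**Figure D3:**
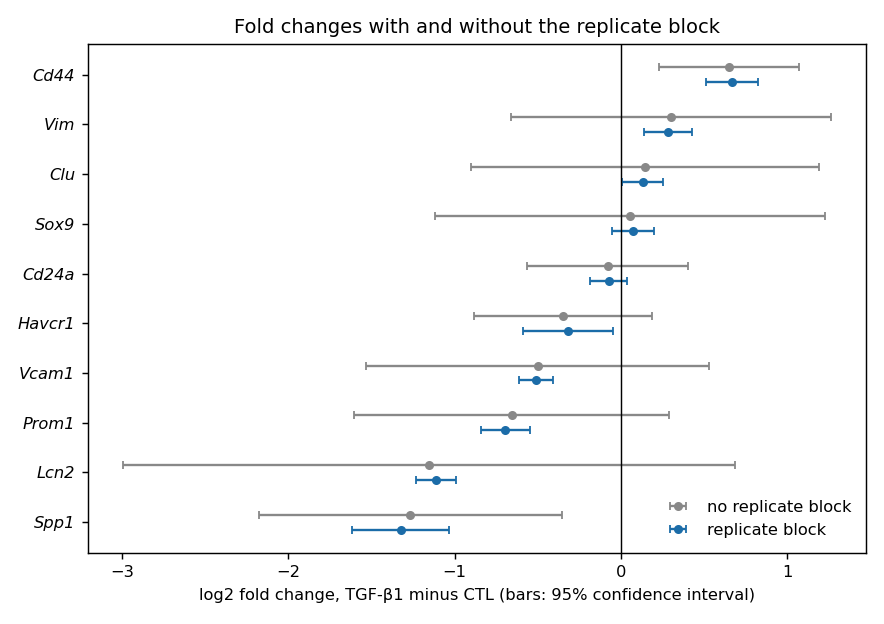
Log2 fold change of each marker (TGF-β1 minus CTL, horizontal axis) with its 95% confidence interval, without (grey) and with (blue) the replicate block. The estimates of both fits lie close together, and the blocked intervals are narrower for all 10 markers.

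For most markers more of the variation lay between replicate numbers than between conditions. The sum of squares of log2 CPM over the 6 cultures was divided between condition, replicate number and a remainder, as a description without a test. The replicate share was larger than the condition share in 8 of the 10 markers and above 90% in 4, which were Clu (98.5%), Cd24a (96.8%), Vim (90.7%) and Sox9 (99.1%). Spp1 and Cd44 were the exceptions, with 67.0 and 72.4% of their variation between conditions. For the markers the median shares were 21.0% for condition and 78.9% for replicate number, and for all genes tested they were 35.3% and 37.9%. 8 of the 10 markers were lowest in replicate 2 in both conditions. The shares of all genes that meet these counts were not computed, and replicate number has more levels than condition. The counts are therefore not read as particular to the markers. Lcn2 in replicate 2 differed from the mean of replicates 1 and 3 by -2.10 on the log2 scale in CTL and by -1.96 in TGF-β1 cultures, and Sox9 differed by -1.27 and -1.20. Vim differed the other way, by 0.86 and 1.02. The Y-linked genes and the epithelial and fibroblast lists separated the same replicate, and their part in the markers' levels was not tested.

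**Figure D4:**
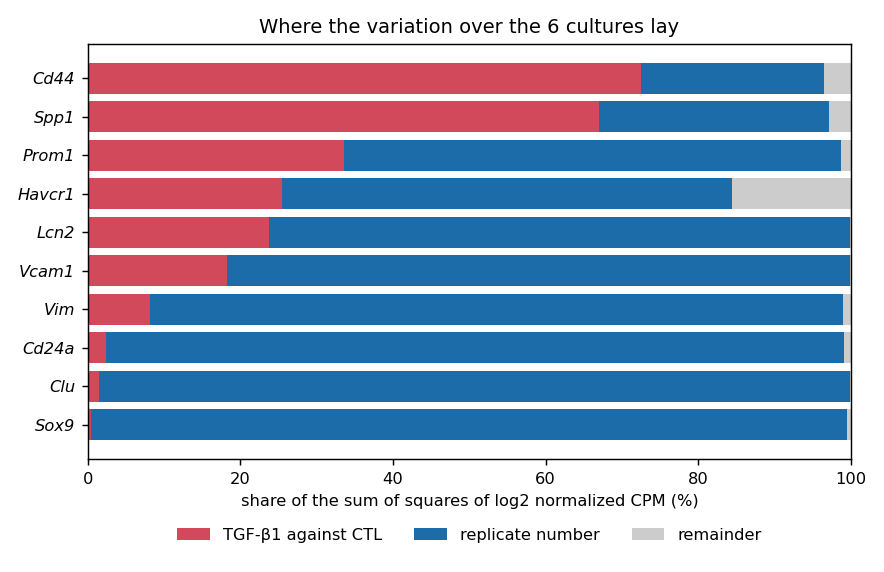
Share of each marker's sum of squares of log2 normalized CPM (percent, horizontal axis from 0 to 100) that lay between conditions (red), between replicate numbers (blue) or in the remainder (grey). Red leads for Cd44 and Spp1, and blue leads for the other 8 markers.

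Per kb of exon, used to compare levels of different genes, Spp1 was the most abundant marker with a mean over the 6 cultures of 3016 CPM per kb (958 to 5459). The length was the union of all annotated exons, which can exceed that of the transcripts present and not equally for each gene. Clu (603), Vim (362) and Cd24a (274) followed, and then Lcn2 (115), Havcr1 (87.2), Cd44 (43.6), Prom1 (26.8), Sox9 (15.7) and Vcam1 (9.30 CPM per kb). The ranges over cultures of neighbours in this order overlapped except between Spp1 and Clu and between Havcr1 and Cd44. Clu was above Vim in 4 of 6 cultures, Vim above Cd24a in 4, Lcn2 above Havcr1 in 3 and Cd44 above Prom1 in 4, so these neighbours are not ordered beyond their spread. For the other 5 neighbouring pairs the higher marker led in all 6 cultures. Of these, Havcr1 above Cd44 and Sox9 above Vcam1 were reversed in mean CPM without division by length. The means were 201 and 296 CPM for Havcr1 and Cd44, and 65.1 and 82.5 CPM for Sox9 and Vcam1. Both orders thus rest on the lengths used.

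**Figure D5:**
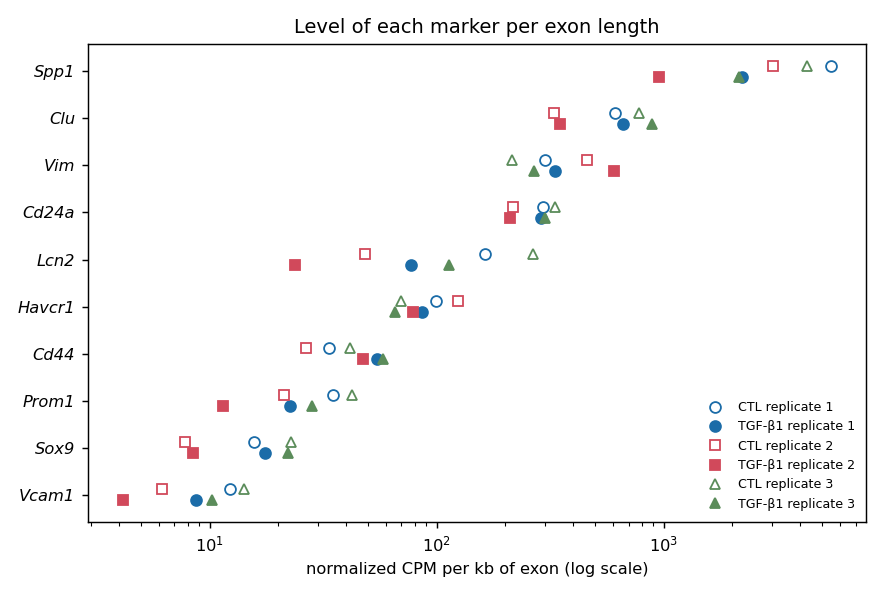
Normalized CPM per kb of exon (log axis) of each marker in every culture, with open symbols for CTL, filled symbols for TGF-β1 and 1 shape per replicate number. Spp1 lies between 958 and 5459, above every other marker, and Vcam1 has the lowest mean, 9.30.

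For each marker, the tested genes whose centred log2 CPM profile over the 6 cultures lay nearest were found among 10901 genes with a mean of at least 5 CPM. Distances are Euclidean on the log2 scale and describe likeness only. The nearest genes to Sox9 were Krt7, a keratin of simple epithelia (distance 0.091), and Fermt1 (0.17). Next to Clu came Morc4 (0.14) and Elf3 (0.17), an epithelial transcription factor. Vim had Loxl1, a lysyl oxidase family enzyme (0.20), and Map1a (0.22) beside it. Lcn2 lay nearest to Hpn (0.21), a membrane serine protease, and Fam163a (0.28), and Spp1 to Bst1 (0.43) and Aoc1 (0.45), an enzyme that oxidizes amines. Cd44 had Spata13 (0.11) and Jup (0.12), the junction protein plakoglobin, as neighbours. Prom1 lay beside Slc22a18 (0.10) and Ttc39a (0.11), and Cd24a beside Arsb (0.051), a lysosomal sulfatase, and Syngr2 (0.074). For Vcam1 they were Stap2 (0.15) and Ptpn6 (0.20), and for Havcr1 they were Abcc10 (0.14) and Rasl10b (0.18).

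Most other injury and repair transcripts were not called without the replicate block, whereas with it most of those tested were. Of 30 other tubular injury and repair genes 29 were tested, and in the unblocked edgeR test 0 rose, 5 fell and 24 were not called, with a list median log2 fold change of -0.19. Over all genes tested 5.00% rose and 6.69% fell. Among these falls were Gpnmb, a lysosomal glycoprotein (-1.97, adjusted p = 0.0354), and Dcdc2a, a doublecortin family protein of cilia (-1.41, adjusted p = 0.0173). In the same test S100a11 (-0.18, adjusted p = 0.0354) and Cryab (-0.96, adjusted p = 0.00379), named here after their values were seen, also fell. S100a11 passed in none of the 6 fits that left out 1 culture, Gpnmb in 2 and Dcdc2a in 4. Gpnmb had 71 to 186 reads in CTL and 22 to 42 reads in TGF-β1 libraries. With the block 15 fell and 2 rose, beside 19.1% and 15.1% of all genes, and 12 were not called. The 2 that rose were Timp1 and Hmox1, again named after their values were seen. The count of 5 became 2 with no filter beyond 1 count, 1 without the replicate 1 culture of either condition, 3 without the replicate 2 culture of either condition and 2 without TGF-β1 replicate 3. It was 0 without both replicate 1 cultures, 9 without both of replicate 2 and 1 without both of replicate 3.

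Without the replicate block a few genes of the mature tubule fell and most were not called. With it most of those tested were called, and most of these fell. Of 22 differentiated tubule genes 12 stayed under 1 CPM in every culture and 11 were tested. In the unblocked edgeR test 1 rose, 3 fell and 7 were not called, with a median of -0.93, and 5.00% of all genes rose and 6.69% fell. Aqp1, the water channel of the proximal tubule and thin limb, fell by 2.91 on the log2 scale (adjusted p = 0.0092 in edgeR), Cdh16, the kidney-specific cadherin, went from 232 to 302 CPM in CTL to 69.7 to 106 CPM in TGF-β1 cultures (adjusted p = 0.0092), and Lrp2, the endocytic receptor megalin, fell by 0.93 (adjusted p = 0.0165). Ass1, an enzyme of arginine synthesis, rose by 1.12 (adjusted p = 0.0228). With the block 6 fell, 1 rose and 4 were not called, and 19.1% of all genes fell and 15.1% rose. The 4 calls became 2 without CTL replicate 1 and 0 without both cultures of replicate 1 or both of replicate 3. On the list of epithelial and tubule identity genes 0 rose and 2 fell without the block, Cdh16 and Pax8. Pax8 was named after its values were seen. With the block 7 of 10 fell, beside 19.1% of all genes.

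Partners of the markers, the integrins, hyaluronan enzymes and filament linkers that their proteins bind or act with, went both ways. 25 of 30 were tested, 4 rose and 1 fell in the unblocked edgeR test, and the median log2 fold change was 0.01. Of all genes 5.00% rose and 6.69% fell in that test. Itgb3, an integrin chain that pairs with αv to bind osteopontin, went from 37.3 to 44.8 CPM in CTL to 100 to 120 CPM in TGF-β1 cultures (log2 fold change 1.48, adjusted p = 0.0022). Itgb1, the chain shared by many matrix receptors, rose by 0.56 (adjusted p = 0.0228), and Msn, the linker moesin that ties CD44 to actin, rose by 0.42 (adjusted p = 0.0128). Plec, the fourth, was named after its values were seen. Des, which encodes desmin, a filament protein of the same family as vimentin, fell by 1.17 (adjusted p = 0.0113). With the block 9 rose and 8 fell, beside 15.1% and 19.1% of all genes. The 5 calls became 1 without CTL replicate 1, 2 without TGF-β1 replicate 1 and 3 without CTL replicate 2 or CTL replicate 3. They became 0, 8 and 2 without both cultures of replicate 1, 2 and 3.

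NF-kB responsive genes are an inflammatory group, and Lcn2 and Vcam1 also respond to NF-kB. Among 14 of 18 tested there were 0 rises and 3 falls in the unblocked edgeR test, with a median log2 fold change of -0.52. Icam1, an adhesion molecule for leukocyte integrins, fell by 1.14 (adjusted p = 0.0468), and C3, the central complement component, fell by 2.22 (adjusted p = 0.0492). Ccl20, a chemokine, fell by 3.11 (adjusted p = 0.0425) and had 43 to 84 reads in CTL and 2 to 19 reads in TGF-β1 libraries. Of all genes 5.00% rose and 6.69% fell in that test. With the block 10 fell and 0 rose, beside 19.1% and 15.1% of all genes. The 3 calls became 0 with no filter beyond 1 count and 1 with at least 10 counts in each sample. They became 0 without CTL replicate 1, CTL replicate 3 or TGF-β1 replicate 1, 1 without TGF-β1 replicate 2 or 3, and 4 without CTL replicate 2. Without both cultures of replicate 1, 2 and 3 there were 0, 8 and 1 calls.

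Of known TGF-β1 target genes, a list chosen like the others with earlier results of these data known, all 15 were tested. 8 rose and 0 fell in the unblocked edgeR test, with a median log2 fold change of 0.55. Of all genes 5.00% rose and 6.69% fell in that test. Fn1, which encodes fibronectin, went from 8796 to 9470 CPM in CTL to 17591 to 19710 CPM in TGF-β1 cultures (log2 fold change 1.04, adjusted p = 0.0038), and Pmepa1, a feedback inhibitor of TGF-β signalling, rose by 0.87 (adjusted p = 0.0105). With the block 12 rose and 2 fell, beside 15.1% and 19.1% of all genes. The 2 that fell were Id1 and Id3, both named after their values were seen. The 8 calls became 3 without the replicate 1 culture of either condition and 5 without CTL replicate 2. Without both cultures of replicate 1 there were 0, and without both of replicate 3 there were 4.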

How the data were processed

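The authors trimmed 50-bp single-end reads with Trim Galore, aligned them to GRCm38 with STAR 2.4.1d and counted them per gene with HTSeq 0.6.1, per the methods and the submitters' processing notes. The annotation release and strand setting are not given in the sources used here. The deposited values are raw read counts, 1 file per culture. HTSeq summary lines were left out of totals; not uniquely aligned reads were 18.7 to 19.4%, reads on no feature 4.16 to 4.93% and ambiguous reads 1.88 to 1.97% of records, which can undercount a gene that has near-identical copies. Cd44, Vcam1, Prom1 and Spp1 overlap other annotated genes, and reads on both were not counted or, without strand, could not be told apart. Counts of any pair of libraries differed by a chi-square of at least 9.02 per degree of freedom, so none was the same library sequenced again. The value cannot tell separate animals from separate dishes or libraries of 1 source.

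Symbols, positions and union exon lengths came from GENCODE M21 on GRCm38, which matched 46005 of 46517 identifiers. Counts were tested in R 4.3.3 with edgeR 4.0.16 (filterByExpr by condition, TMM, robust glmQLFit, glmQLFTest, two-sided, Benjamini-Hochberg adjustment over 15862 genes, threshold 0.05). SEs were derived from the F statistic. The script was tested on simulated data. Over 15862 genes, the deviations of a CTL culture from its group mean correlated with those of the TGF-β1 culture of its own number (0.445, 0.738 and 0.648 for numbers 1, 2 and 3) and less with those of other numbers (-0.688 to 0.289). Deviations within a group sum to 0, so an outlying replicate 2 alone can make replicates 1 and 3 correlate. CTL 1 with TGF-β1 3 gave 0.289 and CTL 3 with TGF-β1 1 gave 0.204. The pairing by number is therefore clearest for replicate 2. It was read from the same cultures that the block compares. Permutation tests of CPM were exact and two-sided. Alternatives were DESeq2 1.42.0, limma-voom (limma 3.58.1), the replicate block, scaling by RLE or by library size only, a filter of 1 count in all or of 10 counts in each sample, and leaving out each culture or both cultures of 1 number. Figures used matplotlib 3.10.9.

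The markers and gene lists were chosen with earlier results of these data known. Named genes are the 10 markers, up to 3 genes per list and direction with the largest change among those that passed, and the 2 nearest profiles per marker; some genes that the rule chose are not reported here. Ctgf was matched as Ccn2 through RefSeq synonyms.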

Additional observations from a re-analysis of the deposited data

How the results depend on the processing

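None of the 10 markers passed in the unblocked edgeR fits scaled by RLE or by library size only, or filtered at 1 count in all or at 10 counts in each sample, nor in limma-voom. DESeq2 called 1 higher and 1 lower, Cd44 (0.65, adjusted p = 0.00374) and Spp1 (-1.27, adjusted p = 0.00166). The replicate block gave 2 higher and 4 lower markers, with log2 fold changes of -1.11 for Lcn2, -1.32 for Spp1, -0.51 for Vcam1, 0.67 for Cd44, -0.70 for Prom1 and 0.28 for Vim, and changed no other call among the markers. Over all genes 1201 were higher with DESeq2, 508 with library size only and 2388 with the block, and 3037 were lower with the block. Scaling by library size moved the median log2 fold change of all genes from -0.0028 to -0.077. List calls were 9 (DESeq2), 2 (no filter) and 17 (block) for other injury and repair genes, 7 (block) for differentiated tubule genes, 10 (DESeq2) and 17 (block) for partners, 7 (DESeq2), 0 (no filter), 1 (at least 10 counts) and 10 (block) for NF-kB responsive genes, and 14 (block) for TGF-β response genes. The sign turned for Sox9 with library size only (-0.015), and for Elf3, at 0.00059 otherwise, with DESeq2 (-0.00022), library size only (-0.069), at least 10 counts (-0.0035) and the block (-0.0080). By CPM without division by exon length, 6 of the 10 markers kept their rank. The cause of these changes was not tested.

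Leaving out single cultures, or both of 1 replicate number with or without the block, gave 0 to 2581 genes higher and 0 to 3254 lower. The 0 came without replicate 1 in the unblocked edgeR fit, where 1938 genes had an unadjusted p under 0.05; where a condition was left with fewer cultures its spread was estimated with the other. Markers called were 0 to 2 higher and 0 to 5 lower. List calls ranged from 0 to 20 for other injury and repair genes, 0 to 7 for differentiated tubule genes, 0 to 17 for partners, 0 to 14 for NF-kB responsive genes and 0 to 14 for TGF-β response genes. Log2 fold changes ranged from -0.54 to -0.14 for Havcr1, -1.66 to -0.56 for Lcn2, -0.18 to 0.43 for Clu, -1.48 to -0.97 for Spp1, -0.78 to -0.21 for Vcam1, 0.50 to 0.82 for Cd44, -0.95 to -0.37 for Prom1, -0.23 to 0.059 for Cd24a, -0.12 to 0.64 for Vim and -0.26 to 0.45 for Sox9. Among genes of like profile they ranged from -0.25 to 0.47 for Krt7, -0.21 to 0.42 for Morc4, -0.32 to 0.29 for Elf3, -0.22 to 0.068 for Arsb, -0.24 to 0.039 for Syngr2, -0.087 to 0.67 for Loxl1, -0.23 to 0.67 for Map1a and -0.18 to 0.54 for Fermt1. The 17 list genes chosen by the rule were picked for passing the unblocked test in these same cultures, so their stability is no independent support. All 17 kept their direction in every fit run and passed with the block, and 5 passed in all 6 fits that left out 1 culture. The least counted marker had 1062 reads in a library.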
